A study of Mus musculus with 4 samples.

Results

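The genes described here encode integrin subunits, laminin chains, thrombospondins and 10 further glycoproteins and proteoglycans of the extracellular matrix, and their transcripts were measured in primary mouse Leydig cells. Members were taken by symbol: protein-coding genes whose GENCODE M21 name is that of an integrin α or β subunit, a laminin chain or a thrombospondin, together with Fn1, Tnc, Nid1, Nid2, Sparc, Postn, Bgn, Lum, Eln and Fbn1. This rule used no expression value and found 51 of the 55812 features in the count table, of which 47 passed the low-count filter and were tested among 14701 genes. The cells, labelled as Leydig cells of mice aged 6 months, had received Trps1 siRNA in 2 samples and Negative siRNA in 2 samples. The labels name no strain, culture time or siRNA dose. They also do not tell whether the samples were grown as separate cultures, so every p-value reflects the spread of these 4 samples alone, and that spread may be technical.

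Integrins are transmembrane receptors made of 1 α and 1 β subunit, and the pair formed decides which matrix protein is bound. Laminins are trimers of an α, a β and a γ chain that build the basement membrane, which nidogens link to the collagen network. Thrombospondins, SPARC and periostin regulate how cells interact with matrix, whereas fibronectin, fibrillin and elastin form fibres. Leydig cells lie in the testicular interstitium, where they are surrounded by basement membrane material and sit close to resident macrophages, which carry the β2 integrins of leukocytes. Trps1 encodes a zinc finger repressor that binds GATA sequences.

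Library totals were 17844125 and 21597187 counts with Trps1 siRNA, and 20116799 and 25852898 counts with Negative siRNA. Trps1 was at 23.5 and 30.1 CPM (read counts relative to the TMM-scaled library total) in the Trps1 siRNA samples and at 38.0 and 42.2 CPM in the Negative siRNA samples, so the targeted transcript was lower but still present (log2 fold change -0.58 ± 0.10, edgeR adjusted p = 0.000351). Ccnd1, the cyclin gene named in the study's title, was at 62.7 and 54.8 CPM with Trps1 siRNA, against 83.7 and 79.4 CPM with Negative siRNA. Of 10 markers of adult Leydig cells, all 10 were tested. They summed to 7106 and 7616 CPM with Trps1 siRNA, against 4532 and 4880 CPM with Negative siRNA. Cyp11a1, at 3414 and 3652 CPM with Trps1 siRNA and 2409 and 2612 CPM with Negative siRNA, was the largest part of the sum. Of the 10 genes 8 rose (edgeR adjusted p under 0.05), beside 5.24% of all tested genes, Cyp17a1 most (log2 fold change 2.70 ± 0.08). Star and Insl3 did not pass the test, with log2 fold changes of -0.09 ± 0.06 and 0.02 ± 0.06 and overlapping groups. The 18 macrophage markers summed to 2712 and 2145 CPM with Trps1 siRNA, against 3201 and 3126 CPM with Negative siRNA, so sample 2 of Trps1 siRNA held the fewest macrophage counts. Lymphocyte markers summed to at most 3.33 CPM, endothelial markers to between 42.1 and 52.9 CPM, and germ cell markers to between 32.6 and 48.5 CPM. Nearly all of the germ cell sum was Zbtb16, at 35.6 and 46.1 CPM with Trps1 siRNA and 34.1 and 31.5 CPM with Negative siRNA, whereas Ddx4, Sycp3, Stra8, Prm1 and Tnp1 were at or near 0. Of the Sertoli cell markers Fshr had no read and Sox9 was at 2.68 to 3.86 CPM. The sum of that list was nearly all Clu, which many cell types express. Gata1, also on that list, passed the test as higher (0.41 ± 0.11 in log2 units, edgeR adjusted p = 0.0154). Its Trps1 siRNA samples held 21.9 and 21.8 CPM, and its Negative siRNA samples 15.6 and 17.3 CPM. Of the platelet markers Pf4, which macrophages also express, was at 23.0 to 32.4 CPM, and Ppbp and Gp9 were at or near 0.

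With Trps1 siRNA, Itgb8, Fn1, Lama4 and Lamb1 rose, and Thbs1, Itga1, Itgb2 and Bgn fell. These 8 of the 47 tested genes are 17%, beside 11.2% of all 14701 tested genes (edgeR's quasi-likelihood test, Benjamini-Hochberg adjusted p under 0.05). By direction, 4 rose and 4 fell, where 5.24% of all tested genes rose and 6% fell. The share called was 6.25% for α subunits, 28.6% for β subunits and 18.2% for laminin chains. It was 33.3% for thrombospondins and 20% for the listed glycoproteins. Each of these family shares rests on 1 or 2 called genes. The changes were small: the log2 fold change of Itgb8 was 0.79, and the other 7 lay between -0.47 and 0.36. The median log2 fold change was 0.04 for the 47 genes and 0.00 for all tested genes. Samples of the groups did not overlap for 27 of the 47 genes, or 57.4%, close to the 52.2% of all tested genes. Several of these calls were lost without sample 2 of Trps1 siRNA, a fit that leaves 1 sample in that group and called fewer genes in the whole table too. DESeq2 called 6 of the 47. It gave some of the others, such as Itga2 and Itgb4, no adjusted p, so these could not be called. In the whole table DESeq2 called 991 of the 11851 genes that were given an adjusted p, or 8.36%.

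**Figure D1:**
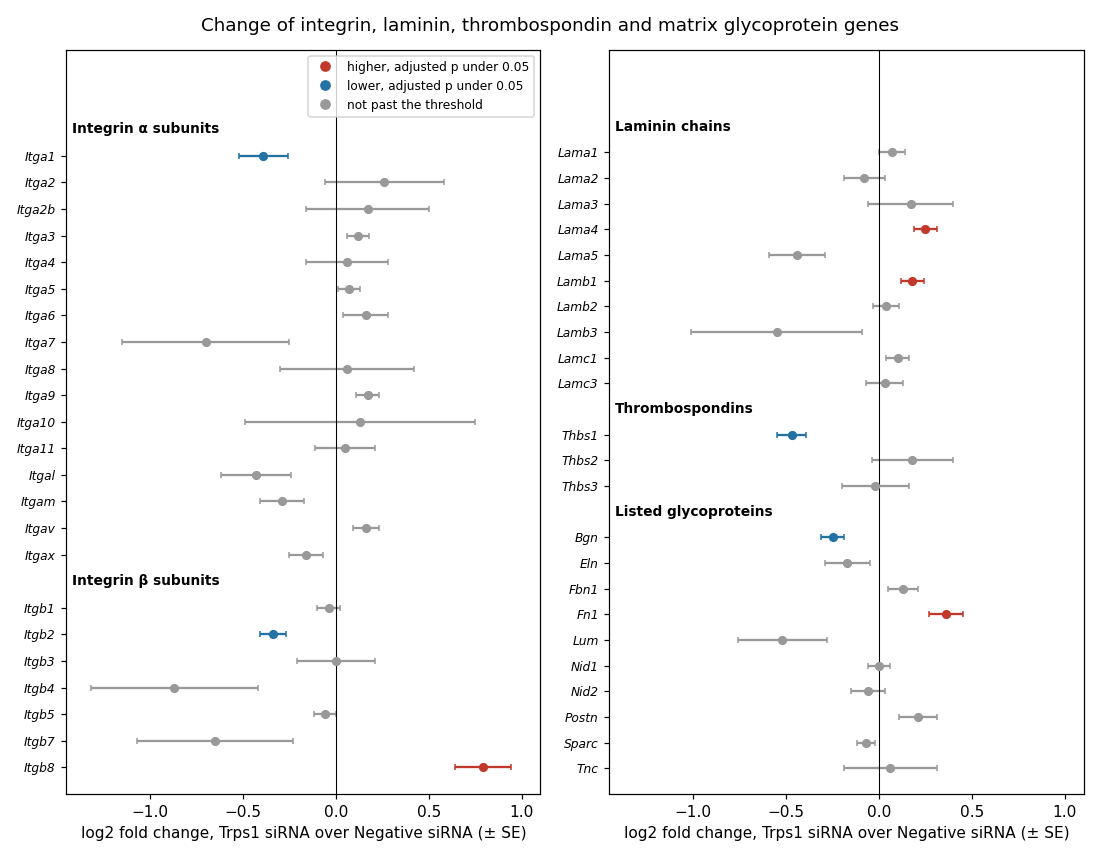
Log2 fold change of 46 of the 47 tested genes, Trps1 siRNA over Negative siRNA, with bars of 1 standard error (n = 2 samples per group). Genes past an adjusted p of 0.05 in edgeR's test are coloured, and the point of Itgb8 at 0.79 stands farthest to the right, while the abundant Itgb1, Lamb2 and Sparc lie at -0.04, 0.04 and -0.07.

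**Figure D2:**
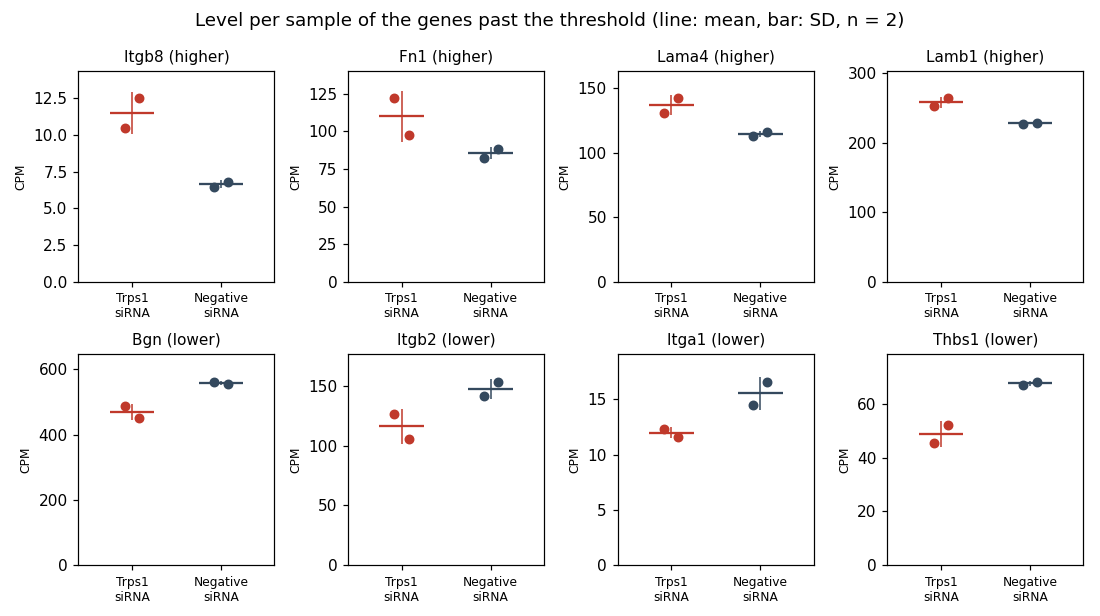
CPM in each sample for the 8 genes past the threshold, with the mean and SD of each group (n = 2). Both Trps1 siRNA points lie above both Negative siRNA points for Itgb8, Fn1, Lama4 and Lamb1 and below them for Bgn, Itgb2, Itga1 and Thbs1.

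Itgb8 had the largest rise. It encodes the β8 subunit, which pairs with αv and binds latent TGF-β. Its level was 10.5 and 12.5 CPM in the Trps1 siRNA samples, against 6.46 and 6.83 CPM in the Negative siRNA samples, from 188, 271, 130 and 175 reads in that order. Both Trps1 siRNA samples lay above both Negative siRNA samples, a 1.73-fold difference (log2 fold change 0.79 ± 0.15, standard error; edgeR adjusted p = 0.000722), and the call was kept under all 12 alternative settings tried. The authors' deposited table also lists Itgb8, with a log2 fold change of 0.79 and an adjusted p of 0.0024. That table holds 4 of the 51 genes, Itgb8, Lama4, Thbs1 and Bgn. Itgb2, Fn1, Lamb1 and Itga1, called here, are not in it. Itgb8 (ENSMUSG00000025321) lies on the minus strand of chromosome 12, 119158022 to 119238802, GRCm38. Its only known partner Itgav was at 88.9 and 103 CPM with Trps1 siRNA and at 82.6 and 88.9 CPM with Negative siRNA, so the groups overlapped (log2 fold change 0.16 ± 0.07, edgeR adjusted p = 0.144). Itgav was called when sample 1 of Trps1 siRNA was left out (log2 fold change 0.26, edgeR adjusted p = 0.0129), but dropping sample 2 instead left a change of 0.05 (edgeR adjusted p = 0.831), and dropping sample 1 of Negative siRNA one of 0.11. Per kilobase of exon, the level of Itgb8 was 0.115 and 0.117 times that of Itgav with Trps1 siRNA, against 0.0759 and 0.0746 times with Negative siRNA, a ratio computed after the values were seen and not tested.

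The promoter windows of Itgb8, which rose most, and of Bgn, the most abundant gene that changed, are shown because Trps1 is a GATA-binding factor. Each runs from 250 bases before to 50 bases after the start of transcription in RefSeq (GRCm38.p6), read on the strand of the gene, and the 50 bases after that start are in capitals. The windows are chr12:119238227-119238526 on the minus strand and chrX:73483351-73483650 on the plus strand. GENCODE M21 places the 5′ end of Itgb8 upstream of the RefSeq start.
Itgb8: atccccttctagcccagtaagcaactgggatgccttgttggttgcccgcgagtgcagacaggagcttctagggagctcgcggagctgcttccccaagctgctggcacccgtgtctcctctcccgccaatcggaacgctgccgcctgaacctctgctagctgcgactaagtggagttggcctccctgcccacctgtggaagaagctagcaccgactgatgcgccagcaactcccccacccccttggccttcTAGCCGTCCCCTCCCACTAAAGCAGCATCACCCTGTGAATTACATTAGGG
Bgn: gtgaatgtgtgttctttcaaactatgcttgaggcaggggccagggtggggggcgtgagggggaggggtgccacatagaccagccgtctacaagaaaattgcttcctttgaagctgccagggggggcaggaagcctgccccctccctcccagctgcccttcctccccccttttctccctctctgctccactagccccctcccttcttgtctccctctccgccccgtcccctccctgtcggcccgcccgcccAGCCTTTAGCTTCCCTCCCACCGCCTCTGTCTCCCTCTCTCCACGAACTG
Neither window holds the letters GATA on either strand. RefSeq windows were matched by symbol for 32 of the 51 genes, and for 4 of the 8 that changed, Itgb8, Lamb1, Bgn and Itga1, none of which holds GATA. Over all 37 windows of these genes 37.8% hold GATA, against 57.9% of all 32851 windows of the same length. One of the longer forms AGATAA or AGATAG or TGATAA or TGATAG, each of which contains GATA and was searched on both strands, was in 5.41% of the windows of these genes and 29.8% of all windows. Their median GC content was 58.7%, against 52.7% for all windows. Windows of 300 bases leave most regulatory sequence unsearched.

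Among integrin β subunits, Itgb1, the shared partner of most matrix-binding α subunits, was by far the most abundant, at a mean of 169 CPM per kilobase of exon over the 4 samples. Itgb5, which pairs with αv, followed with 52.9 and Itgb2 with 43.3 CPM per kilobase, whereas Itgb8 and Itgb3 were at 0.820 and 0.817, and Itgb7 and Itgb4 at 0.392 and 0.128. Itgb1 was at 674 and 682 CPM with Trps1 siRNA, against 701 and 696 CPM with Negative siRNA. The groups did not overlap, but the difference was small, with a log2 fold change of -0.04 ± 0.06 that did not pass the test (edgeR adjusted p = 0.726). Itgb5 was at 192 and 177 CPM with Trps1 siRNA and at 204 and 180 CPM with Negative siRNA, and its groups overlapped (log2 fold change -0.06 ± 0.06). Itgb4, whose product binds laminin in hemidesmosomes, had 12 and 13 reads with Trps1 siRNA and 24 and 29 with Negative siRNA (log2 fold change -0.87 ± 0.45, edgeR adjusted p = 0.242), a difference that was not detectable at this depth. For Itgb3, the β subunit of the platelet fibrinogen receptor, the fold was 0.999, and Itgb7, of lymphocyte homing, had a log2 fold change of -0.65 ± 0.42. Of the 7 tested β subunits 1 rose, 1 fell and 5 stayed below the threshold.

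**Figure D3:**
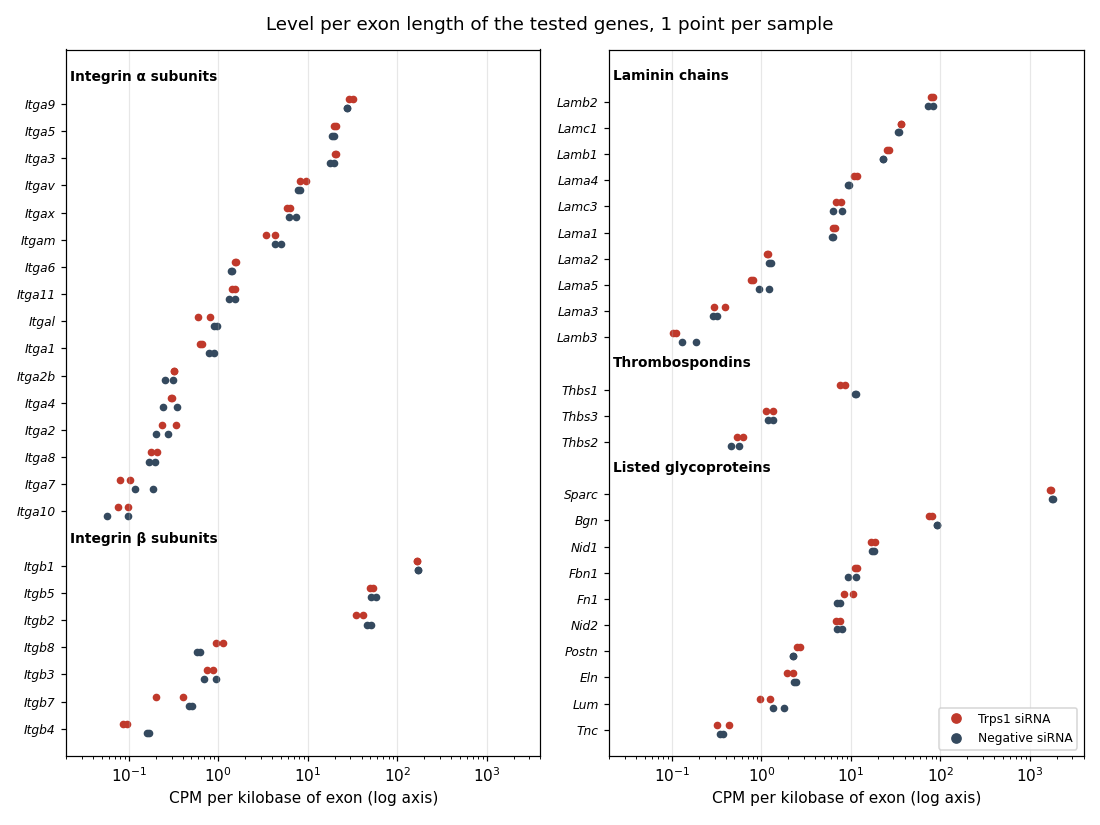
Level of 46 of the 47 tested genes in CPM per kilobase of annotated exon on a log axis, 1 point per sample, ordered within each family by the mean. Levels span from below 0.1 for Itga10 to about 1761 for Sparc. The range of levels within each family was far wider than the difference between the groups, although some pairs, such as Itga5 and Itga3, lay close together.

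Itgb2 encodes the β2 subunit found on leukocytes, and it fell. It was at 127 and 106 CPM in the Trps1 siRNA samples, against 142 and 154 CPM in the Negative siRNA samples, so the groups did not overlap and sample 2 of Trps1 siRNA was lowest. The log2 fold change was -0.34 ± 0.07 (edgeR adjusted p = 0.00286), and without sample 2 of Trps1 siRNA it was -0.22, with an edgeR adjusted p of 0.059. Its partners Itgam and Itgal had log2 fold changes of -0.29 ± 0.12 and -0.43 ± 0.19 and did not pass the test (edgeR adjusted p = 0.121 and 0.176), although their groups did not overlap. Itgam passed without sample 1 of Trps1 siRNA (-0.45) and without sample 1 of Negative siRNA (-0.39), but was at -0.13 without sample 2 of Trps1 siRNA and -0.17 without sample 2 of Negative siRNA (edgeR adjusted p = 0.681 and 0.556). Most of its exon sequence overlaps another annotated gene on the same strand, Gm49368, so its count is uncertain. Itgax, at 28.0 and 30.1 CPM with Trps1 siRNA and 29.7 and 35.2 CPM with Negative siRNA, overlapped between the groups (log2 fold change -0.16 ± 0.09). In the same samples each of 17 macrophage markers other than Itgam was detected. Of the 17, 9 fell (52.9%, beside 6% of all tested genes) and 8 did not pass the test. Among those 8, groups overlapped for Cd163, Cx3cr1 and H2-Aa, and H2-Aa had a positive log2 fold change (0.47 ± 0.34). The 17 markers summed to 2690 and 2128 CPM with Trps1 siRNA, against 3179 and 3101 CPM with Negative siRNA. Itgb2 amounted to 4.72% and 4.99% of that sum with Trps1 siRNA, and 4.45% and 4.97% with Negative siRNA, with overlapping groups. Lyz2 alone made up 41.5% to 46.4% of the sum. With Lyz2 also left out, Itgb2 amounted to 8.58% and 9.3% of the other markers with Trps1 siRNA, against 8.12% and 8.49% with Negative siRNA, and the groups no longer overlapped. These ratios were computed after the values were seen and not tested. In bulk RNA, fewer cells of a type and less RNA per cell cannot be told apart. Of 10 integrin genes of leukocytes and platelets, 8 were tested, 1 fell and 7 did not pass the test. The share called was 12.5%, close to the 11.2% of all tested genes and the 13.3% of the 15 other tested integrins. Median log2 fold changes were -0.23 for the 8 and 0.07 for the 15.

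**Figure D4:**
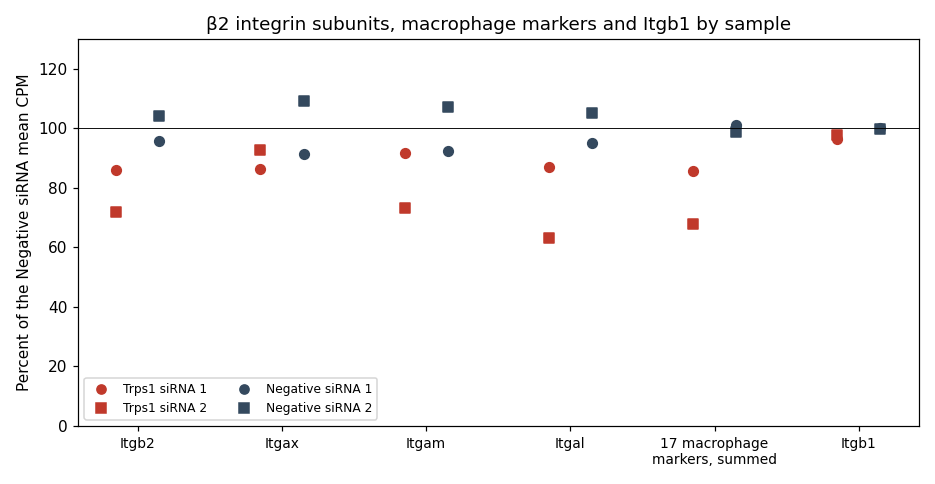
CPM of Itgb2, its partners Itgax, Itgam and Itgal, the sum of 17 macrophage markers and, for contrast, Itgb1, each as a percentage of its Negative siRNA mean, with 1 point per sample. In sample 2 of Trps1 siRNA, Itgb2, Itgam and Itgal stood at 71.8%, 73.3% and 63.2% and the marker sum at 67.8%. Itgax and Itgb1 stood at 92.6% and 97.6% there, and Itgax was at 86.2% in sample 1.

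Among α subunits, Itga9, a receptor for tenascin and osteopontin, had the highest level per length, a mean of 29.2 CPM per kilobase. Itga5, the fibronectin receptor subunit, and Itga3, a laminin receptor subunit, came next with 19.6 CPM per kilobase each and could not be ranked against each other, since their samples ranged from 18.8 to 20.7 and from 17.8 to 20.6. Itgav had 8.46, Itgax 6.40 and Itgam 4.27 CPM per kilobase, and the other tested α subunits had between 0.0821 and 1.48. Of the 16 tested α subunits, 1 fell and 15 did not pass the test.

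Itga1 was the α subunit that fell. It encodes the collagen-binding partner of β1 and was at 12.3 and 11.6 CPM with Trps1 siRNA, against 14.5 and 16.6 CPM with Negative siRNA, without overlap (log2 fold change -0.39 ± 0.13, edgeR adjusted p = 0.0474). This call lay at the threshold and was lost under 7 of 12 alternatives, with DESeq2 (adjusted p = 0.171), without sample 2 of Negative siRNA (edgeR adjusted p = 0.351) and without sample 1 or 2 of Trps1 siRNA (edgeR adjusted p = 0.085 and 0.262) among them. Itga1 (chromosome 13, 114953096 to 115101964, minus strand) shares exon sequence with Gm49395 on the same strand. The other collagen-binding subunits Itga2, Itga10 and Itga11 had log2 fold changes of 0.26 ± 0.32, 0.13 ± 0.62 and 0.05 ± 0.16, with groups that overlapped.

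Itga9 was at 225 and 249 CPM with Trps1 siRNA, against 211 and 212 CPM with Negative siRNA. The groups did not overlap, yet the log2 fold change of 0.17 ± 0.06 missed the threshold (edgeR adjusted p = 0.0834). It passed when sample 1 of Trps1 siRNA was left out (0.23, edgeR adjusted p = 0.0194), and was 0.09 when sample 2 of Trps1 siRNA was left out (edgeR adjusted p = 0.563). Itga5 was at 102 and 96.1 CPM with Trps1 siRNA and at 96.5 and 92.5 CPM with Negative siRNA, with overlapping groups. The laminin-binding subunits Itga3 and Itga6 had log2 fold changes of 0.12 ± 0.06 and 0.16 ± 0.12 without overlap between the groups, and Itga7, another laminin receptor subunit with 14 to 30 reads, had -0.70 ± 0.45. None of these 3 passed the test (edgeR adjusted p = 0.243, 0.496 and 0.369). Itga4, Itga8 and Itga2b, at 1.24 to 4.77 CPM, had log2 fold changes between 0.06 and 0.17.

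The laminin chains were led by Lamb2, Lamc1 and Lamb1, with means of 79.6, 35.2 and 24.5 CPM per kilobase, which is the set of β and γ chains most laminins share. Of the α chains, which set what a laminin binds, Lama4 was highest with 10.4 CPM per kilobase, followed by Lama1 with 6.40, Lama2 with 1.21, Lama5 with 0.927 and Lama3 with 0.326. Of 11 laminin chains, all 11 tested, 2 rose and 9 did not pass the test.

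Lama4, whose α4 chain is found in the basement membranes of vessels and muscle, rose. It was at 131 and 142 CPM in the Trps1 siRNA samples, against 113 and 116 CPM in the Negative siRNA samples, without overlap (log2 fold change 0.25 ± 0.06, edgeR adjusted p = 0.00424). The call was lost without sample 2 of Trps1 siRNA (0.19, edgeR adjusted p = 0.102) and also without Negative siRNA sample 1 (0.23, edgeR adjusted p = 0.0619). The authors' deposited table lists Lama4 with a log2 fold change of 0.25 and an adjusted p of 0.0261. The gene lies on chromosome 10, 38965515 to 39110188, plus strand.

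Lamb1 was at 253 and 264 CPM with Trps1 siRNA, against 227 and 229 CPM with Negative siRNA, again without overlap. Its log2 fold change of 0.18 ± 0.06 passed narrowly (edgeR adjusted p = 0.0398) and was lost under 6 of 12 alternatives, including DESeq2 (adjusted p = 0.0611) and the fits without sample 2 of Trps1 siRNA (edgeR adjusted p = 0.222), sample 1 of Negative siRNA (edgeR adjusted p = 0.223) or sample 2 of Negative siRNA (edgeR adjusted p = 0.178). Lamc1, the γ1 chain that joins α4 and β1 in a trimer, was at 298 and 304 CPM with Trps1 siRNA, against 284 and 280 CPM with Negative siRNA, and did not pass the test (log2 fold change 0.10 ± 0.06, edgeR adjusted p = 0.34). The more abundant β2 chain gene Lamb2 was at 507 and 474 CPM with Trps1 siRNA and at 510 and 446 CPM with Negative siRNA, with overlapping groups.

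Lama5, the α5 chain of many epithelial and vascular basement membranes, was at 9.07 and 8.83 CPM with Trps1 siRNA, against 13.8 and 10.6 CPM with Negative siRNA. Its groups did not overlap, and its log2 fold change of -0.44 ± 0.15 just missed the threshold (edgeR adjusted p = 0.0578). It passed under 4 alternatives, one of them the fit without sample 2 of Negative siRNA (-0.62, edgeR adjusted p = 0.00958), whereas without sample 1 of Negative siRNA the log2 fold change was -0.24 (edgeR adjusted p = 0.513). Lama4 made up 55.7% and 56.5% of the summed level per kilobase of the 5 α chains with Trps1 siRNA, against 51.3% and 52% with Negative siRNA, a share computed after the values were seen and not tested. Lama1, Lama2, Lama3, Lamb3 and Lamc3 had log2 fold changes from -0.55 to 0.17, with standard errors of 0.07 to 0.46.

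Thbs1, the most abundant thrombospondin with 9.62 CPM per kilobase, fell. Its product binds many matrix proteins and cell receptors and can activate latent TGF-β. It was at 45.5 and 52.4 CPM in the Trps1 siRNA samples, against 67.2 and 68.5 CPM in the Negative siRNA samples, without overlap and from 813 to 1755 reads. The log2 fold change was -0.47 ± 0.08 (edgeR adjusted p = 0.000109), and the call was kept under all 12 alternatives, where the log2 fold change lay between -0.58 and -0.38. The authors' deposited table gives a log2 fold change of -0.47 and an adjusted p of 5.88e-05. Thbs1 (ENSMUSG00000040152, chromosome 2, 118111876 to 118127133, plus strand) shares a short stretch of exon with Gm29233 on the opposite strand. Thbs3 was at 5.48 and 6.57 CPM with Trps1 siRNA and at 5.76 and 6.48 CPM with Negative siRNA. Thbs3 and the still rarer Thbs2 overlapped between the groups, with log2 fold changes of -0.02 ± 0.18 and 0.18 ± 0.22. Of 3 tested thrombospondin genes, 1 fell and 2 did not pass the test.

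Sparc, a collagen-binding protein that moderates cell adhesion, was the most abundant of all 51 genes, with 1761 CPM per kilobase. Its counts were 0.644% to 0.691% of the TMM-scaled library totals. It was at 6576 and 6439 CPM with Trps1 siRNA, against 6914 and 6758 CPM with Negative siRNA. The groups did not overlap, and the log2 fold change of -0.07 ± 0.05 did not pass the test (edgeR adjusted p = 0.42).

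Bgn, which encodes the small leucine-rich proteoglycan biglycan, was next with 84.3 CPM per kilobase, and it fell. It was at 487 and 451 CPM with Trps1 siRNA, against 563 and 555 CPM with Negative siRNA, without overlap (log2 fold change -0.25 ± 0.06, edgeR adjusted p = 0.00675). Without sample 2 of Trps1 siRNA the change was -0.20 with an edgeR adjusted p of 0.0672, and the authors' deposited table gives -0.25 and 0.00265. Bgn spans 73483602 to 73495933 on the plus strand of chromosome X. Its relative Lum, which encodes lumican and had 51 to 111 reads, missed the threshold with a log2 fold change of -0.52 ± 0.24 (edgeR adjusted p = 0.188), although its groups did not overlap.

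Fn1, which encodes fibronectin, rose. It was at 122 and 97.9 CPM in the Trps1 siRNA samples, against 82.6 and 88.6 CPM in the Negative siRNA samples. The groups did not overlap, but the Trps1 siRNA samples differed from each other more than the lower of them did from the controls (log2 fold change 0.36 ± 0.09, edgeR adjusted p = 0.0148). Without sample 1 of Trps1 siRNA the change was 0.19, with an edgeR adjusted p of 0.0811, and without sample 2 it was larger and still called. Fn1 (chromosome 1, 71585520 to 71653200, minus strand) shares exon sequence with Apol7d on the opposite strand. The fibrous partners of fibronectin in the matrix did not pass the test: Fbn1, fibrillin-1, at 134 and 141 CPM with Trps1 siRNA and 113 and 139 CPM with Negative siRNA, had a log2 fold change of 0.13 ± 0.08, and Eln, elastin, -0.17 ± 0.12. Fbn1 was called without sample 2 of Negative siRNA (0.29, edgeR adjusted p = 0.0155) and turned to -0.02 without sample 1 of Negative siRNA.

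The basement membrane linkers Nid1 and Nid2 had log2 fold changes of 0.00 ± 0.06 and -0.06 ± 0.09. Nid1 averaged 123 ± 7.71 CPM with Trps1 siRNA and 123 ± 3.03 CPM with Negative siRNA (SD, n = 2 each). Postn, periostin, was at 23.4 and 22.0 CPM with Trps1 siRNA, against 19.7 CPM in both Negative siRNA samples, without overlap (log2 fold change 0.21 ± 0.10, edgeR adjusted p = 0.229). Tnc, tenascin-C, a ligand of the abundant Itga9, had only 44 to 75 reads and a log2 fold change of 0.06 ± 0.25. Of the 10 listed glycoproteins and proteoglycans, all 10 tested, 1 rose, 1 fell and 8 stayed below the threshold.

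Markers of peritubular myoid and smooth muscle cells, which also express several of these matrix genes, summed to 130 and 129 CPM with Trps1 siRNA, against 149 and 155 CPM with Negative siRNA. Most of that sum was Mylk, Myl9 and Acta2. Of the 7 markers 5 were tested, of which Acta2 and Myl9 fell (log2 fold change -0.69 for each) and Mylk rose (0.26). Des and Myh11, the latter at 0.827 to 1.05 CPM, did not pass the test. Tagln and Cnn1 were below the filter, at 0 to 0.248 and 0.039 to 0.138 CPM. Tagln shares exon sequence with genes annotated on the opposite strand, and whether counting was stranded is not known. Its count is therefore uncertain, and its low level cannot be read as absence of the transcript. Of 6 markers of stromal fibroblasts, all 6 tested, Dcn fell and Col3a1 rose. These 6 together reached 4194 and 4159 CPM with Trps1 siRNA, against 3993 and 4010 CPM with Negative siRNA. Col3a1 was the largest part of that sum, at 2369 and 2363 CPM with Trps1 siRNA and 2030 and 2026 CPM with Negative siRNA. The log2 fold change was negative for 4 of the 6 markers and positive for 2, with a median of -0.12. The part of these cells in the changes of Thbs1, Itga1, Bgn, Fn1 and the laminins was not tested.

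On the cytoplasmic side of integrins, 28 of 30 genes of the adhesion complex were tested, of which 5 fell and 23 did not pass the test. The share called was 17.9%, beside 11.2% of all tested genes, and the median log2 fold change was -0.11. Zyx, which encodes the actin-associated zyxin, was at 168 and 171 CPM with Trps1 siRNA, against 216 and 215 CPM with Negative siRNA (log2 fold change -0.35 ± 0.06, edgeR adjusted p = 0.000135). Actn1, the actin cross-linker α-actinin-1, was at 176 and 187 CPM with Trps1 siRNA, against 221 and 227 CPM with Negative siRNA (-0.30 ± 0.06). Both calls were kept under all 12 alternatives. Tns3, an actin-binding tensin, the adaptor Crk and Lims2, a partner of integrin-linked kinase, had log2 fold changes of -0.23, -0.20 and -0.68, and each of these 3 calls was lost under at least 4 alternatives, DESeq2 and fits without single samples among them (highest adjusted p 0.104, 0.172 and 0.425).

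Of 22 other genes of basement membranes and laminin receptors, 18 were tested, 6 fell, 1 rose and 11 stayed below the threshold. The share called was 38.9%, beside 11.2% of all tested genes, and the median log2 fold change was -0.14. Col15a1, the core protein of a basement membrane proteoglycan, was at 144 and 148 CPM with Trps1 siRNA, against 251 and 252 CPM with Negative siRNA (-0.78 ± 0.06, edgeR adjusted p = 3.89e-10). The transmembrane heparan sulfate proteoglycans Sdc3 and Sdc4, co-receptors of integrins, had log2 fold changes of -0.54 ± 0.06 and -0.33 ± 0.06 (edgeR adjusted p = 1.36e-06 and 0.000335). These 3 calls were kept under all 12 alternatives. Ntn4, a laminin-related netrin, had a log2 fold change of -0.57 and lost its call without sample 2 of Trps1 siRNA (edgeR adjusted p = 0.129). The tetraspanin gene Cd9 and the sarcoglycan genes Sgcb and Sgce had -0.27, -0.18 and 0.23, and lost their calls under 3, 8 and 7 of 12 alternatives, including DESeq2 and fits that left out single samples of either group.

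Among 40 other matrix glycoprotein and proteoglycan genes, 34 were tested, 5 fell, 1 rose and 28 stayed below the threshold. The share called was 17.6%, beside 11.2% of all tested genes, and the median log2 fold change was -0.09. Tgfbi, an adhesion protein that binds integrins and collagen, was at 41.2 and 36.6 CPM with Trps1 siRNA, against 69.3 and 64.2 CPM with Negative siRNA (-0.78 ± 0.08, edgeR adjusted p = 1.77e-07). The small leucine-rich proteoglycan genes Ogn and Dcn, relatives of Bgn and Lum, had log2 fold changes of -0.48 ± 0.06 and -0.26 ± 0.06. Efemp1, fibulin-3, was at 355 and 364 CPM with Trps1 siRNA, against 473 and 460 CPM with Negative siRNA (-0.38 ± 0.06), and Mgp, the matrix Gla protein that inhibits calcification, had -0.40 ± 0.08. Vcan, which encodes the large proteoglycan versican, rose (0.58 ± 0.17, edgeR adjusted p = 0.0207) and lost its call with DESeq2, without sample 1 of Negative siRNA and without sample 2 of Trps1 siRNA (highest adjusted p 0.243). The other 5 calls were kept under all 12 alternatives. Zyx, Actn1, Lims2, Col15a1, Sdc3 and Cd9 overlap exons of genes annotated on the other strand, and the sources used here do not tell whether counting was stranded.

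The 4 members below the filter were Itgad, Itgae, Itgb6 and Thbs4. Itgad and Itgb6 had no read in any library, where a count of 0 allows up to 3 counts, or 0.117 to 0.168 CPM. Itgae had 1 and 6 reads with Trps1 siRNA and 7 and 6 with Negative siRNA, and Thbs4 had 7 and 0 reads with Trps1 siRNA and 5 and 8 with Negative siRNA. Differences in these genes were not detectable at this depth.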

How the data were processed

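Total RNA from 4 samples of primary mouse Leydig cells was sequenced. The deposited values are raw read counts per gene. Per the submitters' processing notes, HISAT2, featureCounts and GRCm38 (mm10) were used; the sources used here give neither versions nor strandedness nor how multi-mapping reads were treated. A second table deposited by the authors covers 780 genes with a scaled mean signal per group, log2 fold changes and p-values from an unnamed test.

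Groups came from the titles. Features were matched to GENCODE M21 for GRCm38 by Ensembl identifier, and 55141 of 55812 had a symbol. Counts were fitted in edgeR 4.0.16 (R 4.3.3) with TMM, filterByExpr (minimum count 10), robust glmQLFit and glmQLFTest, with the group only and 2 residual degrees of freedom. P-values were adjusted by Benjamini-Hochberg over all genes tested. Standard errors are the absolute log2 fold change divided by the root of F, and the biological coefficient of variation was 0.0664. CPM used TMM-scaled totals, and levels between genes were divided by merged exon length. Replicates differed by more than sampling noise (chi-square per gene 4.56 with Trps1 siRNA and 7.58 with Negative siRNA). The floor of 3 counts covers counting error only. The fit was tested on simulated counts.

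Named genes were the members, except 1 that is counted but not reported here, with values in every sample for those past the threshold and the most abundant of each family, and the called genes of 3 pathway lists, up to 6 by p; a few others were chosen after their values were seen. The members and lists were chosen with earlier results of these data known. Alternatives were RLE factors, library totals, no filter, a filter at a mean of 5 CPM, limma 3.58.1 voom, DESeq2 1.42.0, non-robust estimation, a block for the replicate number, and each sample left out.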

Additional observations from a re-analysis of the deposited data

How the results depend on the processing

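Over 12 alternatives, the number of members called stayed within 1.5 times the 8 of the reported fit except without sample 2 of Trps1 siRNA, and over the fits that left out 1 sample it ranged from 3 to 9. All genes called were 1652, but 991 with DESeq2, and 871 to 1675 with a sample left out; the cause was not tested. With the replicate block 11 members and 2285 genes were called. Samples with the same number correlated at only 0.0248 in their deviations from the group means, so the numbers are not taken to pair samples. Of the tested members, 5 passed the threshold under at least 1 alternative, Itga9, Itgav, Itgam, Lama5 and Fbn1, and 6 called members lost their call under at least 1. Library totals alone gave 834 higher and 772 lower genes, against 770 and 882 with TMM.

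The 15 members whose direction turned were all below the threshold. With a sample left out the log2 fold change ranged from -0.03 to 0.51 for Itga2, -0.19 to 0.32 for Itga4, -0.07 to 0.18 for Itga8, -0.16 to 0.59 for Itga10, -0.06 to 0.15 for Itga11, -0.23 to 0.24 for Itgb3, -0.15 to 0.04 for Itgb5, -0.06 to 0.35 for Lama3 and -0.06 to 0.14 for Lamb2. The ranges were -0.13 to 0.20 for Lamc3, -0.17 to 0.10 for Thbs3, -0.02 to 0.29 for Fbn1, -0.07 to 0.06 for Nid1, -0.16 to 0.04 for Nid2 and -0.19 to 0.25 for Tnc. Itgb3 also turned with library totals (0.01), voom (0.02) and the replicate block (0.0047), and Nid1 with no filter (-0.01) and with a mean of at least 5 CPM (-0.00091). For genes with under about 100 reads, standard errors of 0.2 or more limit what these libraries can show.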
